A study of Mus musculus with 14 samples.

Results

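The RNA of 5 aquaporin genes (Aqp1, Aqp3, Aqp8, Aqp9 and Aqp11) and 2 carbonic anhydrase genes (Car1 and Car2) was followed in mouse BFU-E, the burst-forming unit-erythroid progenitors from which red cells descend. These 7 genes, of 55870 gene symbols in the series, were matched by gene name. They were chosen by the FPKM of Aqp9, which was lower with compound PD than with DMSO, so the values of all 7 in that contrast are a description and carry no test. The cells came from C57BL/6 fetal liver and were grown in StemSpan SFEM II medium. There were 12 RNA libraries in 4 groups of 3, which were compound OB at 100 µM, the DMSO controls of the OB set, compound PD at 3 nM, and the DMSO controls of the PD set. DMSO is the solvent, no genetic change is given for any group, and the labels do not state the culture time or the embryonic age. Whether replicates were separate cultures or animals is not labelled, so p-values measure only the spread between these libraries, which may be technical. Levels are FPKM as the authors deposited them, which count fragments per length of gene and per size of library.

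Aquaporins are membrane channels that let water cross along an osmotic gradient. Aqp3 and Aqp9 belong to the aquaglyceroporins, which also pass glycerol, and Aqp9 is known as the glycerol channel of mouse red cells. Carbonic anhydrases convert carbon dioxide and water to bicarbonate and a proton, and in red cells the bicarbonate leaves through the anion exchanger Slc4a1.

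Erythroid markers were high in both sets, but the sets differed in other blood cell markers. The 16 erythroid markers summed to 3214 to 3419 FPKM with compound OB and 3036 to 3349 FPKM in its DMSO controls, and to 2409 to 3273 FPKM with compound PD and 2999 to 5788 FPKM in its DMSO controls. The highest of these sums was in PD DMSO replicate 1. The 22 neutrophil and granulocyte precursor markers, of which the OB set lists 21, summed to 177 to 503 FPKM with compound OB and 156 to 601 FPKM in OB DMSO. The same markers summed to 30440 to 38130 FPKM with compound PD and 11880 to 17940 FPKM in PD DMSO, well above the erythroid sum in every PD library. In the OB set, replicate 1 stood apart in both groups, with granulocyte marker sums of 503 FPKM with compound OB and 601 FPKM with DMSO, against 156 to 193 FPKM in the other 4 libraries. Megakaryocyte markers set replicate 1 apart as well, at 1061 FPKM with compound OB and 1474 FPKM with DMSO, against 512.5 to 673 FPKM in the other 4, and so did mast cell and basophil markers, at 17.5 and 38.8 FPKM against 9.01 to 12.2 FPKM. The 12 hepatocyte markers stayed at 0.08 to 2.95 FPKM in sum over all 12 libraries. In each set 4 of them were listed at 0 in every library. These are bulk values, in which fewer cells of a type and less RNA per cell cannot be told apart. The sets also list different numbers of genes (24054 and 54752), so no level is compared across them by a test.

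Car2, the fast carbonic anhydrase isoform, had the highest level of the 7 genes in all 4 groups. It averaged 1041 ± 142 FPKM with compound OB and 1181 ± 128 FPKM in OB DMSO, and 668 ± 145 FPKM with compound PD and 975 ± 127 FPKM in PD DMSO (SD, n = 3 each). In the OB set Car1, the slower isoform, came second, at 34.8 ± 1.36 FPKM with compound OB and 36.4 ± 1.47 FPKM in DMSO. The ranges of Car2 and Car1 did not overlap each other or those of any aquaporin in either OB group. In the PD set Aqp1, a water channel of the red cell membrane, came second by mean (36.1 ± 11.7 FPKM with compound PD, 34.0 ± 5.84 FPKM in DMSO) and Car1 next (27.0 ± 6.58 and 30.9 ± 13.3 FPKM), with ranges that overlapped in both groups.

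The order of the aquaporins differed between groups. With compound OB it ran Aqp1, Aqp9, Aqp11, Aqp3 and Aqp8 by mean, where only Aqp1 and Aqp9 overlapped among neighbours. In OB DMSO it ran Aqp11, Aqp9, Aqp1, Aqp3 and Aqp8, and every neighbouring pair overlapped. With compound PD it ran Aqp1, Aqp9, Aqp11, Aqp3 and Aqp8, where only Aqp9 and Aqp11 overlapped. In PD DMSO the order of means was the same as with compound PD, but only Aqp3 and Aqp8 overlapped. A mean of at least 1 FPKM was reached by 7 of the 7 genes with compound OB and in OB DMSO. In the PD set it was reached by 6 with compound PD (not Aqp8) and by 5 in DMSO (not Aqp3 or Aqp8). Aqp3 fell just short in PD DMSO, at 0.997 FPKM, and 6 genes reached 1 there with median-ratio scaling of the libraries.

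**Figure D1:**
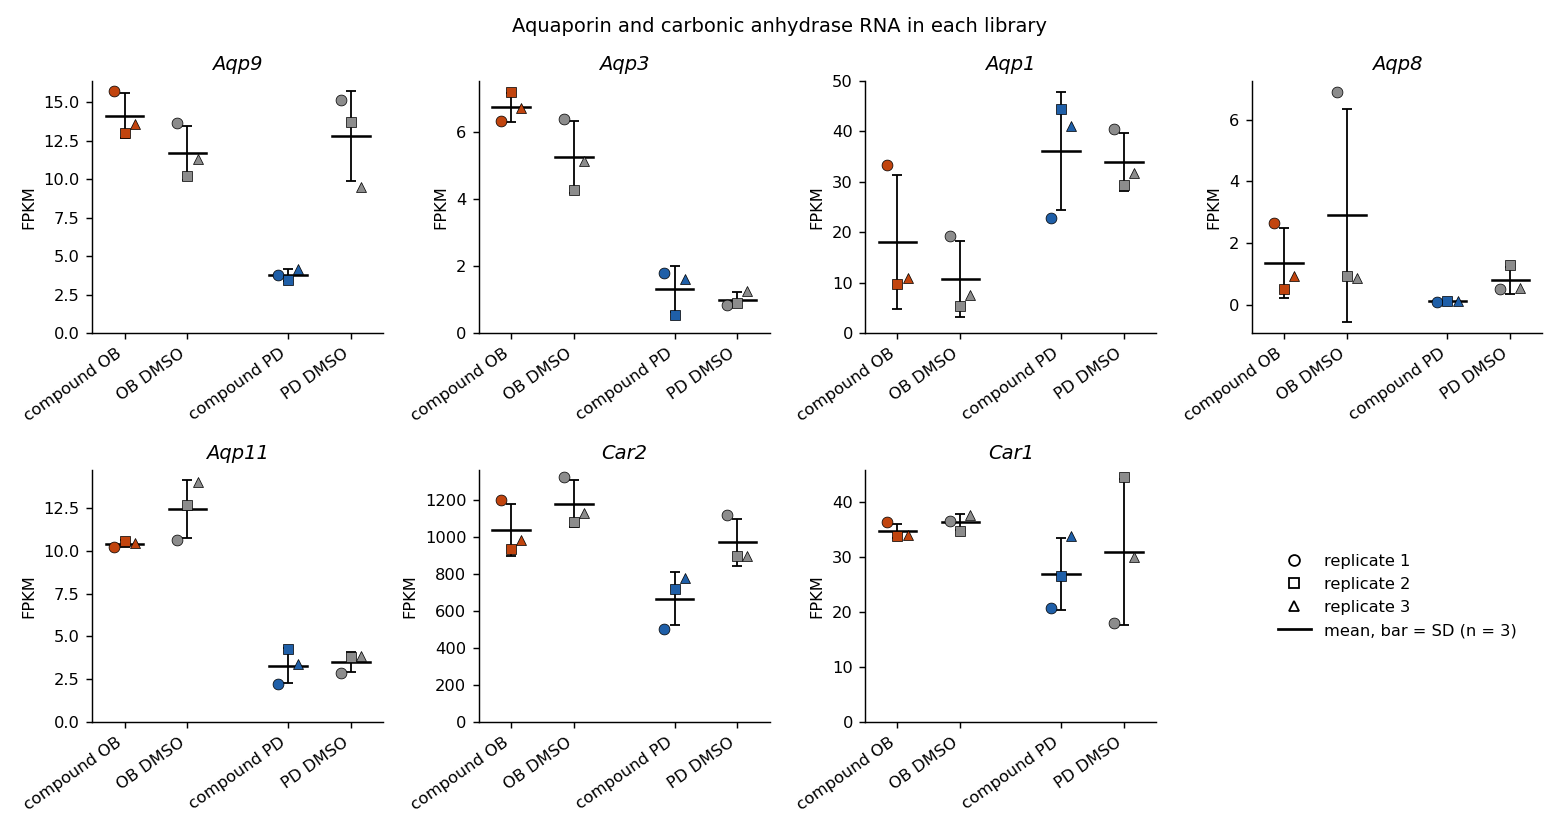
FPKM of the 7 genes in each of the 12 libraries, with 1 panel a gene and a separate vertical scale in each. Points are libraries with their replicate number as the shape, the horizontal line is the group mean and the bar the SD (n = 3). Aqp9 lay at 3.43 to 4.20 FPKM in all 3 compound PD libraries and at 9.51 to 15.8 FPKM in the other 9.

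Aqp9, for which the 7 genes were picked, lies on chromosome 9 from 71110659 to 71167849 (GRCm38.p6). Compound PD libraries held 3.81, 3.43 and 4.20 FPKM, against 15.2, 13.7 and 9.51 FPKM in PD DMSO. All 3 compound PD values lay below all 3 DMSO values, as did those of 3.72% of the 11887 genes tested in that set. The means were 3.81 ± 0.385 FPKM with compound PD and 12.8 ± 2.93 FPKM in PD DMSO (SD, n = 3 each), a ratio of 0.298. On the log2(FPKM + 1) scale, which is used for every difference here and understates the change of low genes, Aqp9 was −1.50 with an SE of 0.23, compound PD minus DMSO. This value ran from −1.68 to −1.37 as each library in turn was left out.

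The RefSeq promoter entries used here hold 2 start sites for Aqp9, both inside the gene span given above. The 5′ end of that span, at 71167849, has no window among them and was not searched. The 300-base windows around the 2 starts reach from 250 bases before the start to 50 after it (GRCm38.p6). They were searched on both strands for motifs of erythroid and cAMP-linked factors. The GATA motif was AGATAA, with T also allowed as the first letter and G as the last. The AP-1 motif was TGAGTCA. The cAMP response element (CRE) was TGACGTCA, which always contains its half-site TGACG, also searched alone. The KLF motif was CCNCNCCC. One window held 3 GATA matches and 1 AP-1 match. Of 32851 RefSeq promoter windows of that length, 29.8% held a GATA match and 5.20% an AP-1 match. These matches are shown because they belong to the gene that the choice of the 7 rested on. Each is in capitals with 9 bases on each side, 5′ to 3′ on the gene's strand, and named by its first base relative to the start. The one at −238 is read on the opposite strand.
Aqp9 GATA match at −238, chr9:71162857-71162880, minus strand: tttccctgaTTATCAgttccagtc
Aqp9 GATA match at −130, chr9:71162749-71162772, minus strand: caagacagtTGATAGgagtggaga
Aqp9 AP-1 match at −24, chr9:71162642-71162666, minus strand: tttggtgacTGAGTCAtctgaaaca
Aqp9 GATA match at 9, chr9:71162611-71162634, minus strand: atggtcaatAGATAGcgtggaaca
None of these 4 matches overlapped another. The other Aqp9 window held 1 KLF match, a motif found in 49.5% of all promoter windows. Neither held a CRE (in 1.79% of promoter windows) or its half-site (20.8%). A match is a description of these letters and not evidence of binding.

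In the OB set Aqp9 did not pass the test. Compound OB libraries held 15.8, 13.0 and 13.6 FPKM, against 13.7, 10.2 and 11.3 FPKM in OB DMSO. The groups overlapped, but the compound OB library was the higher one in each of the 3 same-numbered pairs, with ratios of 1.16, 1.27 and 1.21. The log2 difference was 0.25 (SE 0.14, 95% interval −0.08 to 0.58, adjusted p = 1.00 by limma with Benjamini-Hochberg adjustment over 10074 genes). With the replicate number as a block the SE was 0.07 and the adjusted p was 0.276 by limma.

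**Figure D2:**
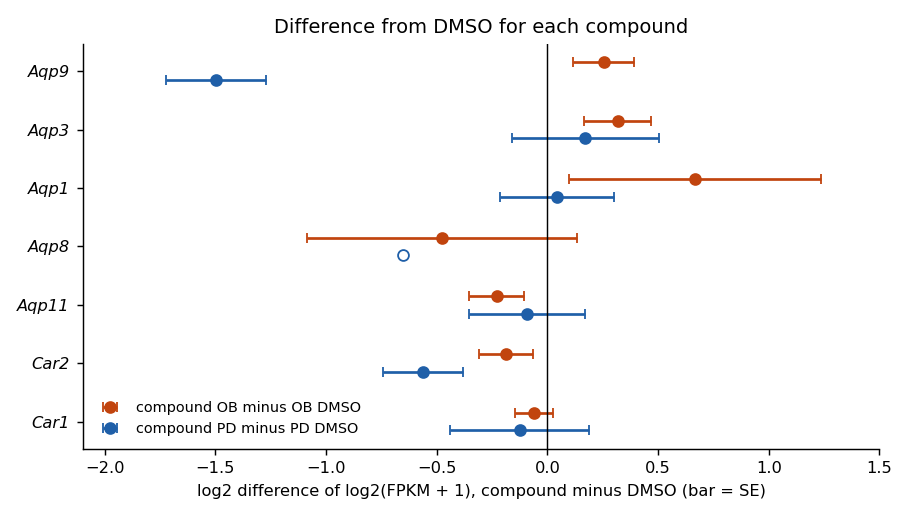
Difference from DMSO for each gene on the log2(FPKM + 1) scale, compound minus its own DMSO controls, with compound OB above compound PD in each row and bars of 1 SE. The open circle is Aqp8 in the PD set, which was below the mean of 1 FPKM needed for the fit. Aqp9 after compound PD sits at −1.50, and every other difference lies between −0.65 and 0.67.

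The same values can be given as a share of the RNA of the 5 aquaporins together, per length, which in the PD set restates the values that chose the genes. Aqp9 made up 12.4%, 6.50% and 8.32% of their summed FPKM in the compound PD libraries, against 25.3%, 27.9% and 20.2% in PD DMSO. With compound OB the shares were 23.1%, 31.6% and 32.0%, against 24.0%, 30.5% and 29.1% in OB DMSO. The shares of the OB groups overlapped.

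Markers of other cells also differed between the PD groups, and granulocyte and megakaryocyte markers were higher where Aqp9 was lower. All 22 granulocyte markers were higher with compound PD by mean log2, with a median difference of 0.87, against a median of 0.06 over all 11887 genes tested. One of them, Fcnb, a ficolin of granulocyte precursors, rose to 241 ± 25.6 FPKM with compound PD, against 83.2 ± 7.74 FPKM in PD DMSO (SD, n = 3 each; log2 1.52, SE 0.15, adjusted p = 0.0204 by limma), in a comparison that called 0.0252% of all genes. That call was lost when any 1 compound PD library was left out. Of the same 22 markers, Mpo was higher by mean log2 through compound PD replicate 1 alone. It held 933, 463 and 422 FPKM with compound PD, against 428, 556 and 560 FPKM in PD DMSO. All 10 megakaryocyte markers were higher as well (median log2 0.86), and none passed without a replicate block. Their sums were 4447 to 7838 FPKM with compound PD and 2412 to 4784 FPKM in PD DMSO. With the replicate number as a block, 7 granulocyte markers, 1 megakaryocyte marker and 1 mast cell and basophil marker passed, all higher. That fit called 41 of all 11887 genes, though over all genes those numbers did not pair the PD libraries. Mast cell and basophil markers summed to 1648 to 3501 FPKM with compound PD and 997 to 2030 FPKM in PD DMSO, and macrophage markers to 24.0 to 30.9 and 12.5 to 23.9 FPKM. The megakaryocyte and the mast cell sums were highest in replicate 1 of both PD groups. Of the 16 erythroid markers 2 were higher and 14 lower (median log2 −0.39), and none passed. Their sums leaned on replicate 1, at 2409 FPKM with compound PD and 5788 FPKM in PD DMSO. In replicates 2 and 3 the sums were 3273 and 3200 FPKM with compound PD, above the 3059 and 2999 FPKM in PD DMSO. Per 1000 FPKM of summed erythroid markers, Aqp9 stood at 1.58, 1.05 and 1.31 with compound PD, against 2.62, 4.49 and 3.17 in PD DMSO, without overlap, which again restates the Aqp9 values on another scale. The part of the granulocyte, megakaryocyte, mast cell and macrophage markers in the Aqp9 values was not tested.

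**Figure D3:**
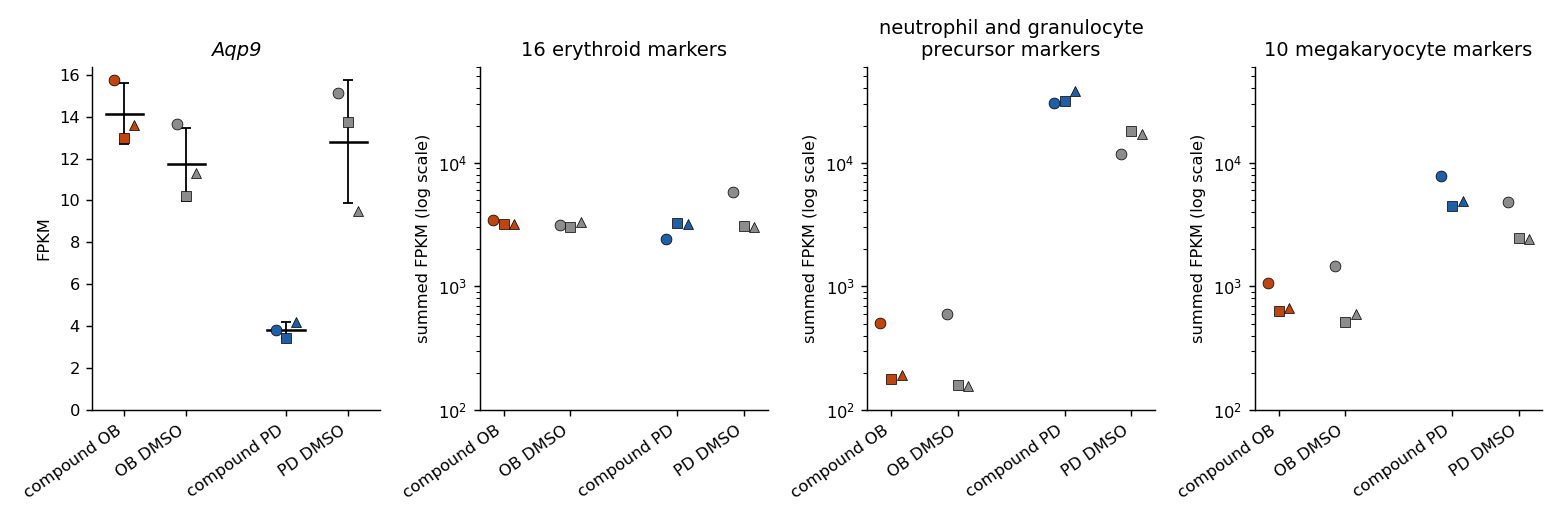
Aqp9 in FPKM (linear scale) beside the summed FPKM of erythroid, granulocyte and megakaryocyte markers (log scales) in each library. Point shapes are replicate numbers, and the bars in the first panel are the mean and SD (n = 3). Compound PD libraries had low Aqp9 and the highest granulocyte sums, 30440 to 38130 FPKM, while erythroid sums of the PD groups overlapped.

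Aqp3, the other aquaglyceroporin among the 7, lies on chromosome 4 from 41092724 to 41098183. It held 6.30, 7.17 and 6.70 FPKM with compound OB, against 6.37, 4.26 and 5.11 FPKM in OB DMSO. The groups overlapped through replicate 1 alone, in which both libraries were near 6.3 FPKM. The log2 difference was 0.32 (SE 0.15, 95% interval −0.04 to 0.68, adjusted p = 1.00 by limma, or 0.342 with the block). Among PD libraries Aqp3 was near the filter of 1 FPKM, at 1.79, 0.54 and 1.62 FPKM with compound PD, against 0.85, 0.89 and 1.25 FPKM in DMSO, and the groups overlapped.

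Aqp1, which in humans carries the Colton blood group, lies on chromosome 6 from 55336299 to 55348555. Compound OB libraries held 33.4, 9.86 and 10.9 FPKM, against 19.3, 5.41 and 7.52 FPKM in OB DMSO. Replicate 1 was the highest library of both groups, as it was for the granulocyte, megakaryocyte and mast cell markers, and the groups overlapped. Within each same-numbered pair the compound OB library was the higher one, by ratios of 1.73, 1.82 and 1.45. Without a block the log2 difference was 0.67 (SE 0.57, 95% interval −0.69 to 2.03, adjusted p = 1.00 by limma). That value rested on single libraries, at 0.14 when compound OB replicate 1 was left out. Leaving out OB DMSO replicate 2 gave 0.32, and leaving out replicate 1 of those controls gave 1.15. With the block the SE was 0.09, the interval 0.45 to 0.88 and the adjusted p 0.0937 by limma, still short of the 0.05 threshold. With the block and median-ratio scaling of the libraries Aqp1 did pass, at a log2 difference of 0.64 (SE 0.08, adjusted p = 0.0256 by limma), where 104 genes in all were called. With the block and without both libraries of replicate 1, the difference was 0.62 (SE 0.11, adjusted p = 0.00887 by limma), and 1133 genes were called. That fit judges the spread from few libraries. Compound PD libraries held 22.8, 44.4 and 41.1 FPKM of Aqp1, against 40.6, 29.5 and 31.8 FPKM in PD DMSO. These groups overlapped widely, and the log2 difference of 0.04 (SE 0.26) turned to −0.05 with median-ratio scaling.

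The 250 bases before the Aqp1 start, chr6:55336049-55336298 on the plus strand (RefSeq, GRCm38.p6), are shown because Aqp1 was the 1 gene of the 7 to pass, under 1 setting, with all 6 OB libraries in the fit. Capitals mark 3 KLF matches.
Aqp1 upstream: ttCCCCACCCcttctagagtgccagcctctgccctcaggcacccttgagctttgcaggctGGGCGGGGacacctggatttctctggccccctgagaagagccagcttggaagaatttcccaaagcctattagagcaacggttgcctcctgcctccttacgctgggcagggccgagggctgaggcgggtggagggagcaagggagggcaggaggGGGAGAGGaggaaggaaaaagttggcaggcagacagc
The Aqp1 window held no GATA, AP-1, CRE or CRE half-site match. Of the other members with a RefSeq window, Aqp3 held 2 KLF matches, and Aqp8 and Aqp11 held no match to any of these motifs.

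Aqp8, a water channel that also passes ammonia, lies on chromosome 7 from 123462294 to 123468003 and had the lowest mean of the 7 genes in every group. It held 2.65, 0.51 and 0.94 FPKM with compound OB, against 6.88, 0.94 and 0.89 FPKM in OB DMSO. Replicate 1 was again the highest library of both groups, and the groups overlapped. The log2 difference was −0.48 (SE 0.61, 95% interval −1.93 to 0.97, adjusted p = 1.00 by limma, or 0.364 with the block), and without OB DMSO replicate 1 it was 0.20, so that 1 library set its sign. Aqp8 held 0.11, 0.12 and 0.14 FPKM with compound PD, against 0.53, 1.31 and 0.56 FPKM in PD DMSO. These groups did not overlap, but the gene did not pass the filter for the fit.

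Aqp11, a member of the family found in the endoplasmic reticulum, lies on chromosome 7 from 97726379 to 97738247. Compound OB libraries held 10.2, 10.6 and 10.5 FPKM, against 10.7, 12.7 and 14.0 FPKM in OB DMSO. Aqp11 was the 1 gene of the 7 whose OB groups did not overlap, all 3 compound OB libraries lying below DMSO. Over all genes tested, 3.42% were lower and 5.31% higher without overlap in that comparison. Its log2 difference was −0.23 (SE 0.12, 95% interval −0.52 to 0.07, adjusted p = 1.00 by limma, or 0.327 with the block). Aqp11 held 2.25, 4.28 and 3.37 FPKM with compound PD, against 2.85, 3.81 and 3.88 FPKM in PD DMSO, and those groups overlapped.

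Both carbonic anhydrases lie on chromosome 3, Car1 from 14766214 to 14808365 and Car2 from 14886269 to 14900770, with Car3 between them. Car2 held 1202, 937 and 984 FPKM with compound OB, against 1325, 1083 and 1134 FPKM in OB DMSO. The groups overlapped, but compound OB was lower in all 3 pairs, with ratios of 0.907, 0.864 and 0.867. The log2 difference was −0.19 (SE 0.12, 95% interval −0.48 to 0.10, adjusted p = 1.00 by limma). It was −0.29 when compound OB replicate 1 was left out, −0.10 when its DMSO counterpart was, and −0.07 with quantile normalization. With the block the SE was 0.04 and the adjusted p 0.184 by limma.

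Car2 held 504, 723 and 777 FPKM with compound PD, against 1122, 901 and 901 FPKM in PD DMSO. All compound PD libraries lay below all DMSO libraries, at a ratio of means of 0.685 and a log2 difference of −0.56 (SE 0.18). Without compound PD replicate 1, the lowest library, the difference was −0.37, which is smaller by more than 1.5 times. Per 1000 FPKM of erythroid markers Car2 stood at 209, 221 and 243 with compound PD, against 194, 294 and 301 in PD DMSO. On that measure the groups overlapped, through PD DMSO replicate 1 alone, the library with the highest erythroid sum.

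Car1 held 36.4, 33.9 and 34.1 FPKM with compound OB, against 36.5, 34.8 and 37.7 FPKM in OB DMSO. The compound OB library was the lower one in each pair by a small margin, and the groups overlapped. The log2 difference of Car1 was −0.06 (SE 0.09, 95% interval −0.27 to 0.14, adjusted p = 1.00 by limma, or 0.647 with the block). Among PD libraries Car1 spread widely, at 20.7, 26.5 and 33.9 FPKM with compound PD, against 18.1, 44.6 and 30.1 FPKM in DMSO, and the compound PD range lay within the DMSO range.

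Over the 7 genes, none passed in the OB set, in a comparison that called 0% of 10074 genes without the block (0 genes by limma, and 372 at an unadjusted p under 0.05) and 0.0695% with it. Aqp1 and Aqp9 were higher in all 3 same-numbered pairs, as were 23.1% of all genes tested. Aqp11, Car1 and Car2 were lower in all 3, as were 16.7% of all genes tested. As each library in turn was left out, the log2 difference ran from 0.20 to 0.45 for Aqp3, 0.17 to 0.36 for Aqp9, −0.33 to −0.15 for Aqp11 and −0.09 to −0.04 for Car1. In the PD set 6 of the 7 passed the filter for the fit. Aqp9, Car2 and the unfitted Aqp8 were lower without overlap, where 3.72% of all genes tested were, and 13.1% were higher. Nothing is read from these PD counts, because that contrast chose the genes.

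**Figure D4:**
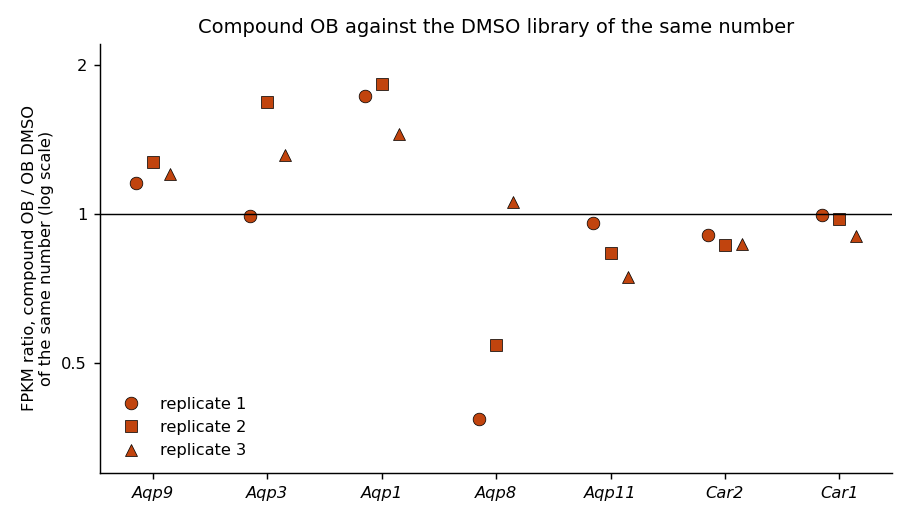
FPKM ratio of each compound OB library to the OB DMSO library of the same number, on a log2-spaced axis. Point shapes are replicate numbers and the line marks a ratio of 1. Aqp1 (1.45 to 1.82) and Aqp9 (1.16 to 1.27) lie above the line in all 3 pairs, and Aqp11, Car1 and Car2 below it.

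The other genes of both families were at low levels. None of the 7 other aquaporins reached a mean of 1 FPKM, and their highest single values were 0.20 FPKM (OB set) and 0.48 FPKM (PD set). Aqp2, Aqp4, Aqp5 and Aqp12 were listed at 0 in all 12 libraries. Of the 14 other carbonic anhydrases, 2 reached 1 FPKM in OB libraries and 4 in PD libraries, and Car4 and Car6 were listed at 0 throughout.

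Car13, a cytosolic isoform, had the highest level of those others. It lies in the same stretch of chromosome 3 as Car1, Car3 and Car2 (4 genes in 259044 bases). It held 6.54 FPKM in each of the 3 compound OB libraries, against 6.90, 6.84 and 8.33 FPKM in OB DMSO, without overlap but also without passing the test (log2 −0.14, SE 0.12, adjusted p = 1.00 by limma). Car13 held 8.09, 7.28 and 7.99 FPKM with compound PD, against 5.85, 11.8 and 11.2 FPKM in PD DMSO, and those groups overlapped. Car15, a membrane-bound isoform, held 1.91, 0.97 and 2.43 FPKM with compound PD, against 3.02, 3.24 and 4.36 FPKM in PD DMSO. These groups did not overlap, and Car15 did not pass (log2 −0.74, SE 0.29, adjusted p = 0.394 by limma). Car15 held 1.91, 1.93 and 1.87 FPKM with compound OB, against 2.17, 2.04 and 1.83 FPKM in OB DMSO.

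Car9, the isoform known as a hypoxia target, held 5.54, 0.51 and 2.54 FPKM with compound PD, against 0.72, 0.82 and 0.42 FPKM in PD DMSO. The groups overlapped through compound PD replicate 2, and Car9 did not pass (log2 0.99, SE 0.49, adjusted p = 0.535 by limma). Car8, a family member without the enzyme activity, held 3.27, 2.05 and 1.87 FPKM with compound PD, against 1.89, 1.48 and 1.13 FPKM in DMSO (log2 0.43, adjusted p = 0.697 by limma).

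**Figure D5:**
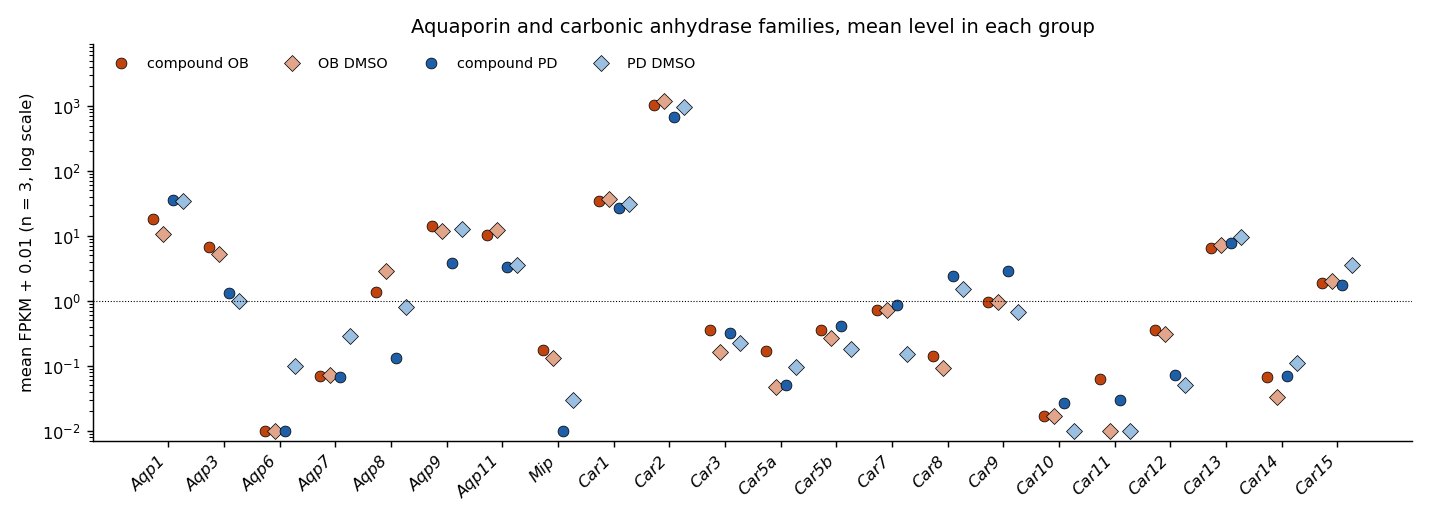
Mean FPKM of each aquaporin and carbonic anhydrase gene in the 4 groups (n = 3 each) on a log scale, with 0.01 added so that zeros show. Circles are compounds, diamonds their DMSO controls and the dotted line marks 1 on that scale. Genes listed at 0 in all 12 libraries (Aqp2, Aqp4, Aqp5, Aqp12, Car4 and Car6) are left out, and Car2 stands highest in all 4 groups.

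The genes that move gas, bicarbonate, urea and ions across the red cell membrane did not pass in either set (Slc4a1 and Rhag also count among the erythroid markers). Of 17 such genes 16 were tested in the OB set, 14 of them higher and 0 called. Higher as well were 5917 of all 10074 genes and 14 of the 16 erythroid markers. The transport genes had a median log2 difference of 0.16 against 0.03 over all genes. In the PD set all 17 were tested, 8 of them higher and 0 called, with a median of −0.05 against 0.06. Of all 11887 genes in that set 7025 were higher. Slc4a1, the anion exchanger that carries out the bicarbonate made by Car2, averaged 377 ± 47.1 FPKM with compound OB and 314 ± 19.3 FPKM in OB DMSO (log2 0.26, SE 0.11, adjusted p = 1.00 by limma). With compound PD it averaged 475 ± 139 FPKM and in PD DMSO 757 ± 592 FPKM, where 1 library, replicate 1, held 1441 FPKM. Rhag, the Rh-associated channel for ammonia and carbon dioxide, averaged 240 ± 1.08 FPKM with compound OB and 214 ± 17.1 FPKM in OB DMSO without overlap (log2 0.17, SE 0.08, adjusted p = 1.00 by limma). Rhag averaged 132 ± 28.9 FPKM with compound PD and 190 ± 47.6 FPKM in PD DMSO (log2 −0.53, SE 0.23, adjusted p = 0.447 by limma). The glucose transporter Slc2a1 averaged 138 ± 22.9 FPKM with compound PD and 302 ± 182 FPKM in PD DMSO without overlap (log2 −0.98, SE 0.35, adjusted p = 0.333 by limma). PD DMSO libraries ran from 191 to 512 FPKM for Slc2a1 and from 158 to 245 FPKM for Rhag, both highest in replicate 1. In the OB set Slc2a1 averaged 199 ± 9.17 FPKM with compound OB and 177 ± 14.8 FPKM in DMSO (log2 0.17, SE 0.09, adjusted p = 1.00 by limma).

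Genes of glycerol metabolism, the solute that Aqp3 and Aqp9 pass, also gave no call. In the OB set 11 of 13 listed genes were tested, 8 of them higher (median log2 0.16), where 5917 of all 10074 genes were higher (median 0.03). Of the same genes 12 were tested in the PD set, 11 of them higher (median log2 0.29), where 7025 of all 11887 genes were higher (median 0.06). Agpat1, which acylates lysophosphatidic acid, averaged 51.6 ± 6.64 FPKM with compound PD and 42.4 ± 2.39 FPKM in PD DMSO without overlap (log2 0.27, SE 0.16, adjusted p = 0.637 by limma). Dgat1, which makes triglyceride, averaged 42.6 ± 8.07 FPKM with compound PD and 30.1 ± 9.03 FPKM in PD DMSO (log2 0.51, SE 0.25, adjusted p = 0.519 by limma). Pnpla2, a triglyceride lipase, averaged 31.9 ± 7.96 FPKM with compound PD and 26.1 ± 1.89 FPKM in PD DMSO (log2 0.26, SE 0.20, adjusted p = 0.778 by limma). Among OB libraries Agpat1, Pnpla2 and Gpd2, the mitochondrial glycerol phosphate dehydrogenase, had the highest means and differed by −0.01 to 0.22 on the log2 scale.

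The genes most like each member were found from the Pearson r of log2(FPKM + 1) after each set's mean was subtracted, over 12 libraries, for the 7180 genes that averaged 5 FPKM or more in each set. These r values describe libraries that share their set, treatment and replicate structure, so they carry no p. Aqp1 was most like Hmox1, the heme-degrading enzyme heme oxygenase 1 (r = 0.93, with 0.99 over the OB libraries and 0.98 over the PD libraries alone), then Akirin2 (0.92) and Fth1, the ferritin heavy chain (0.92). Aqp9 was most like Tpt1 (0.93), Eif5 (0.91) and Rabgef1 (0.90). For Tpt1 the r was 0.57 over the OB libraries and 0.99 over the PD libraries alone, and for Rabgef1 it was 0.665 and 0.926. Aqp3 was most like Ccdc9 (0.92), Pex19 (0.83) and Pank2 (0.82), and Aqp11 most like Ccne2 (0.90), Pmvk (0.90) and Ptrh2 (0.88). Car1 was most like Gtf2a2 (0.97), Mrpl16 (0.94) and Hspe1 (0.94). For these 3 the r was 0.783, 0.366 and 0.605 over the OB libraries, against 0.978, 0.956 and 0.963 over the PD libraries. Car2 was most like Map1lc3b (0.96), Prnp (0.95) and Rrm2 (0.94). Aqp8, which reached 1 FPKM in the OB set alone, was most like Anxa5 (1.00) and Osm (0.99) over those 6 libraries and 7883 genes, in which replicate 1 of both groups stood apart.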

How the data were processed

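RNA of cultured BFU-E was measured in 12 libraries, and 2 chromatin samples are not analysed here. The authors deposited FPKM values with 2 decimals. Per the submitters' processing notes, STAR aligned the reads to mm10. The FPKM program, the annotation and the use of strand were not given in the sources used here, so overlapping, antisense and near-identical genes have uncertain values. The sequencing depth is unknown. Low values did not fall on steps of whole reads (9.13% and 10.1% of ratios whole within 0.05 in the OB and PD sets, against 10% by chance), so no counting error can be given. The number of libraries limits the precision.

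In the OB set 427 entries with a name cut at a hyphen or repeated were left out, and in the PD set 185 repeated ones, with 27 names turned into dates in each. This left 23600 and 54540 symbols. Each set was fitted alone in R 4.3.3 with limma 3.58.1 and statmod 1.5.0, using a mean-variance trend and robust moderation. Values entered as log2(FPKM + 1), and a gene needed to average 1 FPKM over its 6 libraries. P-values were two-sided, adjusted by Benjamini-Hochberg over all genes, with a threshold of 0.05. The fit was tested on simulated data. Python 3.11.15 with numpy 2.4.6, pandas 2.3.3 and matplotlib 3.10.9 handled tables and figures.

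Same-numbered libraries of the OB set deviated together from their group means (r = 0.83, 0.43 and 0.65 over genes). Their replicate numbers were therefore treated as pairs, a pairing that comes from these data and not from the labels. Compound OB replicate 2 also went with OB DMSO replicate 3 (r = 0.33), and compound OB replicate 3 with OB DMSO replicate 2 (r = 0.41). Only the pairing of replicate 1 is clear, so the pairs of replicates 2 and 3 are less certain. Blocked values are given beside those results of the members, and the block called none of the other genes named for that set. In the PD set same-numbered libraries did not deviate together.

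The members and the lists were chosen with earlier results of these data known. Named genes were the 7 members, other family genes with a mean of 1 FPKM in a set and, from the other pathway lists, those that passed or else the 3 with the highest mean. For likeness to each member the 3 genes with the highest r were taken, of which 1 is not reported here. Marker genes other than Fcnb, which passed without the block, and Mpo, named after its values were seen, are given as sums and counts. Alternatives were the pseudocount, the filter, the scaling, the block, the moderation and leaving out libraries. Promoter sequences are from RefSeq on GRCm38.p6, the assembly that mm10 names, with entries for 5 of the 7 members.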

Additional observations from a re-analysis of the deposited data

Results flagged for a closer look

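The mean of Aqp9 lay on opposite sides of its DMSO mean in the 2 sets. The ratio of mean FPKM, compound over its own DMSO, was 0.298 after compound PD and 1.21 after compound OB. All 3 compound PD libraries lay below all PD DMSO libraries. Each compound OB library lay above the OB DMSO library of its number, as it did for 23.1% of all genes tested. The OB groups overlapped, and the OB difference did not pass with or without the block. The difference between the 2 ratios was not tested, because the compound PD contrast chose the gene. Compound, dose and set go together, so they cannot be told apart here.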

How the results depend on the processing

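Aqp9 kept its sign under all 18 alternatives in the OB set, from 0.17 to 0.36 after compound OB (log2). After compound PD it ran from −1.74 to −1.37, which is a description only, because that contrast chose the gene. The PD groups of Aqp9 did not overlap, so leaving out libraries could not turn the sign there. In the OB set 0 genes were called, against 7 with the replicate block, 104 with the block and median-ratio scaling, and 0 to 14 as each library was left out (14 without OB DMSO replicate 1). With the block and 1 pair left out, 3 to 1133 were called (1133 without replicate 1, 146 without replicate 2). Members called in the OB set were 0, against 1 with the block and median-ratio scaling (Aqp1). With the block, 3 were called without replicate 1 (Aqp1, Aqp3, Car2), 1 without replicate 2 (Aqp1) and 0 without replicate 3. Fits that leave out a pair judge the spread from few libraries. Aqp8 ran from −0.84 to 0.20 in the OB set as each library was left out, above 0 without OB DMSO replicate 1 alone. In the PD set 3 genes were called, against 0 with any gene above 0 admitted, 0 without trend or robust moderation, and 0 to 167 as each library was left out (167 without PD DMSO replicate 1, 1 without PD DMSO replicate 2, 0 without any 1 compound PD library). Over all genes tested, the PD replicate numbers did not pair the libraries (r = −0.005, −0.03 and −0.02), though megakaryocyte and mast cell sums were highest in replicate 1 of both groups. The replicate block called 41 genes, 0 with median-ratio scaling and 70 to 206 with 1 pair left out (206 without replicate 1, 70 without replicate 2, 82 without replicate 3). With the block and without replicate 1, Aqp1 was at 0.47 and Car2 at −0.27 in the PD set. The cause of these shifts was not tested. Median-ratio scaling moved the median of all genes from 0.03 to −0.002 (OB set) and from 0.06 to −0.03 (PD set).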

Other observations

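Car7, a cytosolic carbonic anhydrase below the level needed for the fit, was named after its values were seen. It was highest in replicate 1 of both OB groups. It held 1.21, 0.49 and 0.45 FPKM with compound OB, against 1.64, 0.30 and 0.23 FPKM in OB DMSO. Car7 held 1.79, 0.46 and 0.30 FPKM with compound PD, against 0.21, 0.21 and 0.00 FPKM in PD DMSO, without overlap and with compound PD replicate 1 the highest.

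The ratio of Car2 to Car1 FPKM was 33.1, 27.6 and 28.9 with compound OB, against 36.3, 31.1 and 30.1 in OB DMSO, so it was lower with compound OB in each of the 3 same-numbered pairs. It was 24.3, 27.2 and 23.0 with compound PD, against 62.0, 20.2 and 29.9 in PD DMSO, where replicate 1, the library with the highest erythroid marker sum, stood apart. The groups overlapped in both sets. Aqp1 per 1000 FPKM of erythroid markers stood at 9.46, 13.6 and 12.8 with compound PD, against 7.01, 9.64 and 10.6 in PD DMSO, and these groups overlapped.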
